A study of Mus musculus with 24 samples.

Results

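The 8 troponin genes of the mouse were examined for open chromatin: Tnnt1, Tnni1 and Tnnc1 of slow muscle, Tnnt3, Tnni2 and Tnnc2 of fast muscle, and Tnnt2 and Tnni3 of the heart. Peaks of all 24 deposited lists were merged where they overlapped or touched, regions called in at least 2 lists were kept, and those overlapping a RefSeq gene body or the 10 kb on either side of it in mm10 were taken. This gave 89 regions of the 459616 kept in all, 41 of them at the slow genes, 25 at the fast genes and 32 at the cardiac genes. Tnnt1 and Tnni3 lie side by side on chromosome 7 and share 9 of their 12 regions each. Tnnc1 is also the troponin C of the heart and is counted here with the slow genes.

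The lists came from ATAC-seq, in which the Tn5 transposase cuts and tags DNA that is not wrapped around nucleosomes. Nuclei were isolated from undigested hindlimb muscle of FVB/NJ male mice. Soleus and vastus intermedius stood for slow-biased muscle, and gastrocnemius and vastus lateralis for fast-biased muscle. Each of the 4 muscles was taken from 3 adults and, just before birth at E18.5, from 3 litters, so that 8 groups held 3 libraries each. A litter sample pooled left and right muscles of up to 5 male embryos, and an adult sample was 1 animal. The series' design text puts the adults at postnatal day 56, whereas the growth protocol gives 3 to 4 months. The lists held 115333 to 228137 peaks each, with no height or score, so sequencing depth is unknown here and a missing peak does not show closed chromatin. Since each stage's 12 libraries trace back to only 3 adults or 3 litters, p-values over libraries are too small. In whole muscle, fewer nuclei of a type and less accessibility per nucleus cannot be told apart.

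Troponin is the calcium switch of striated muscle and sits on the thin filament with tropomyosin and actin. Troponin C binds calcium, troponin I holds the filament in the blocked state, and troponin T ties the complex to tropomyosin. Each subunit has isoforms encoded by separate genes, and slow fibres, fast fibres and heart muscle use different sets. Tnnt2 is known to be expressed in developing skeletal muscle and to be silenced there later, whereas in the heart it persists.

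The promoters that the results turn on are printed first, as the 250 bases before the start site in the RefSeq table for GRCm38.p6, the same assembly as mm10. That table held 6 of the 8 genes, and Tnnt3 and Tnni2 had no entry. A promoter labelled as called is one whose start-site region, wider than the printed window, had a peak. Capitals mark matches on either strand to the E-box letters CANNTG, bound by myogenic factors, to CATTCC, the MCAT letters, and to TATAAA.
Tnnt2, chr1:135836084-135836333, plus strand, the promoter called at E18.5: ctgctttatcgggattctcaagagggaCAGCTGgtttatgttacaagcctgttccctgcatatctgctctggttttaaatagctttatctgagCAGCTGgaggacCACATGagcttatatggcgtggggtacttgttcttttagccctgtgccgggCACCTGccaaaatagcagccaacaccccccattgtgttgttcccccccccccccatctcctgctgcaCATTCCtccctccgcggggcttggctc
Tnni3, chr7:4522529-4522778, minus strand, a promoter with few peaks at either stage: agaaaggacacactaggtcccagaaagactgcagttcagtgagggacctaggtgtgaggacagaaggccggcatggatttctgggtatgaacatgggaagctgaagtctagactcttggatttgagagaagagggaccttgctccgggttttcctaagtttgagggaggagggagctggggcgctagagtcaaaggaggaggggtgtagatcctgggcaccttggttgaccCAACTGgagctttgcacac
Tnnt1, chr7:4515976-4516225, minus strand, the promoter whose region had peaks in 5 adult libraries of slow-biased muscle and 1 of fast-biased muscle: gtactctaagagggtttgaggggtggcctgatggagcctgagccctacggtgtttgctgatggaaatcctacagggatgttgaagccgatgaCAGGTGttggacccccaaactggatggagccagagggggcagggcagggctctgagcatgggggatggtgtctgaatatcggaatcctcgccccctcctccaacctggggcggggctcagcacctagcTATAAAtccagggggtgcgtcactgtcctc
Tnnc1, chr14:31208062-31208311, plus strand, the promoter whose start site was covered only in 2 adult soleus libraries: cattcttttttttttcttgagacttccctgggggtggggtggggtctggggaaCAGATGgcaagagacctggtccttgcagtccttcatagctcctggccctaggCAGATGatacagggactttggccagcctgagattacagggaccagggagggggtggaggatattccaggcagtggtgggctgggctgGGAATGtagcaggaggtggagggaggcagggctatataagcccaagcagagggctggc
Tnnc2, chr2:164779735-164779984, minus strand, a promoter called in 23 of 24 libraries: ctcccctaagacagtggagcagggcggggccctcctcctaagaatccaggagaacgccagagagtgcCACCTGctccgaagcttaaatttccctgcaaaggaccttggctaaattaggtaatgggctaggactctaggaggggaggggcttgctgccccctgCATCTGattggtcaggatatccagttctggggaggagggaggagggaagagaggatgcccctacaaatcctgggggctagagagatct
CANNTG had 4 matches in the Tnnt2 window, 2 each in the Tnnc1 and Tnnc2 windows and 1 each in the Tnni3 and Tnnt1 windows, and 66.2% of all 32851 windows held at least 1. CATTCC matched once in Tnnt2, 27 to 22 bases before the start site, and once in Tnnc1, 58 to 53 bases before it on the other strand, against 12.6% of all windows. TATAAA matched once, in Tnnt1, 30 to 25 bases before the start site, against 12.4% of windows. None of the 5 printed windows held a MEF2 site, a CArG box, TCAGGTT or ACAAAG, which 2.92%, 1.47%, 3.49% and 16.5% of windows held. CCACCC matched 3 times in Tnnc1 and once in Tnnt1 (28.1% of windows), GGGCGG once each in Tnnt1 and Tnnc2 (32.7%), and GGAAA once each in Tnnt1, Tnnc2 and Tnni3 (55.6%). The windows of the Tnni1 start sites and of a further Tnnt2 start site were not printed and are left out of these counts. The Tnni1 windows held 4 and 2 CANNTG matches, and the further Tnnt2 window held 1, with 1 ACAAAG match. These letters describe the windows and do not show binding.

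Open regions at the troponin genes were wide and widely called. Their median width was 1252 bp against 745 bp over all kept regions, and 7 of the 89 were called in all 24 libraries, against 3.98% of all regions. Those 7 lay at the lower-coordinate ends of Tnnt3 and Tnni2, upstream of Tnnc1, on either side of Tnnc2 in Ube2c and Snx21, upstream of Tnni3 in Dnaaf3, and beyond Tnnt1 in Ppp1r12c. At the other extreme, 13 regions were called in only 2 libraries. An average adult library called 46.2% of the 89 regions and an average E18.5 library 49.6%, against 27.7% and 30.2% of all regions.

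Between the stages, 6 troponin regions passed Fisher's exact test on the number of libraries with a peak (two-sided, Benjamini-Hochberg adjusted p under 0.05 over 170267 regions). Of the 42 troponin regions that the test could have called, 2 were called more often in the adult, against 1.55% of all regions tested, and 4 more often at E18.5, against 4.55%. The adult pair lay near Tnni1 and Tnnc2, and the E18.5 regions at Tnnt2 (2) and Tnnt3 (2). Without the adjustment, 10 of the 42 had p under 0.05. Of all 170267 regions tested, 9037 had such a p with the adult higher and 24380 with E18.5 higher. Adult 1 and litter 1 carry earlier dates in the file names than the other animals of their stage, and across the stages the date in a name cannot be told apart from the stage. With those 2 replicates left out, no troponin region passed Fisher's exact test. With each list thinned at random to the length of the shortest, the Tnnc2 region passed (Fisher's exact test, adjusted p = 0.0464) and the other 5 did not (0.117 to 0.532). When a peak had to cover 50% of a region, the Tnnt3 region outside the gene passed (adjusted p = 0.0278, Fisher's exact test), the Tnni1 region and the Tnnt3 region inside the gene stood at 0.0541 each, and the region inside Tnnt2 had too few calls for a test.

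**Figure D1:**
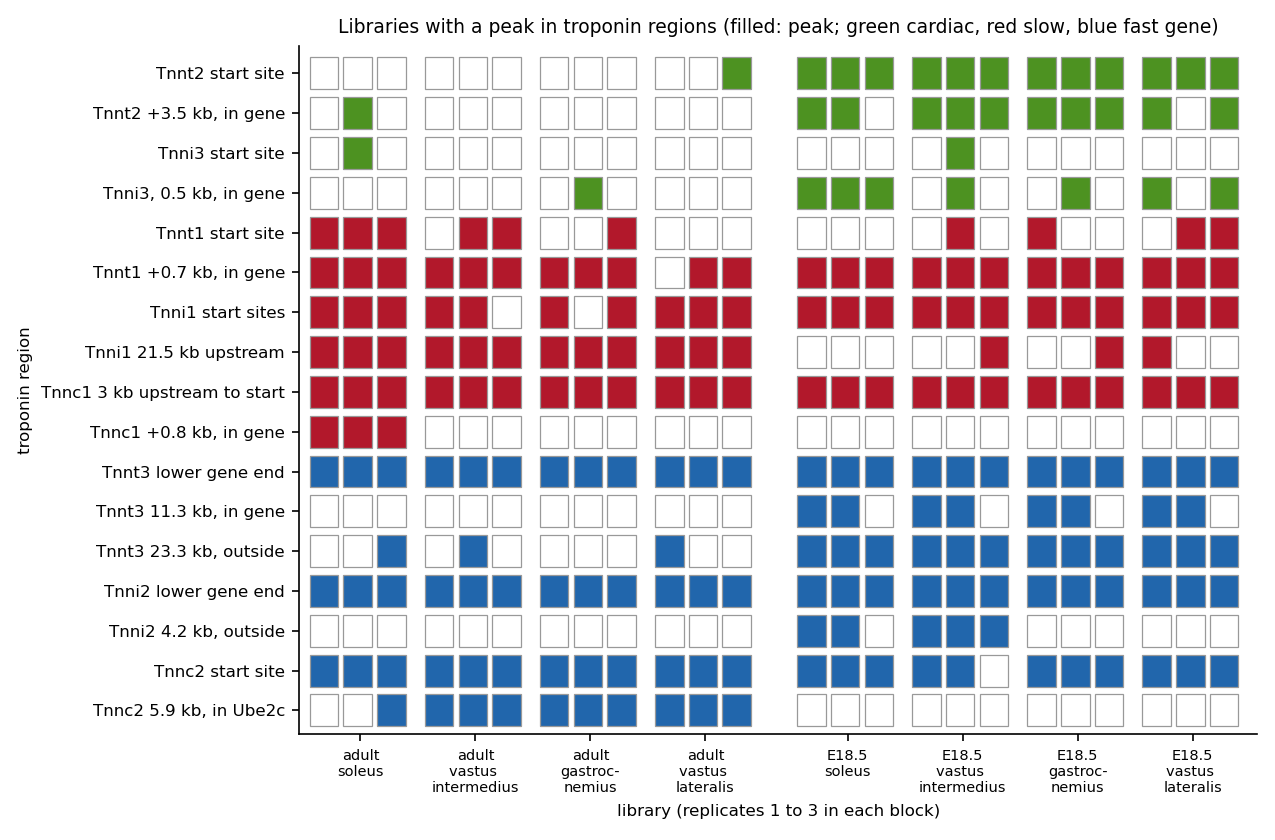
Peaks in 17 troponin regions, one row per region and one square per library, with the 3 replicates of a muscle side by side and adults left of E18.5. A filled square is a library with a peak, in green for cardiac, red for slow and blue for fast genes. The Tnnt2 start site is filled in 12 of 12 E18.5 libraries and 1 of 12 adult ones, and the region 0.84 kb into Tnnc1 only in the 3 adult soleus libraries.

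The stage call with the smallest adjusted p among the members was at the promoter of the cardiac troponin T gene. The region over the Tnnt2 start site (chr1:135835204-135836593) had a peak in 12 of 12 E18.5 libraries and in 1 of 12 adult libraries, vastus lateralis of adult 3 (Fisher's exact test, adjusted p = 0.00113). Peaks covered 266 to 1080 bp of it at E18.5, with a median of 634.5 bp, in all 4 muscles. In the adult the single peak covered 474 bp and the other 11 libraries had 0 bp. This call held when any 1 animal or litter was left out, and the adjusted p was 0.0992 when a peak had to cover 50% of the region.

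The same start site showed how closely the peaks sat on it. A peak lay over the base itself in 10 of 12 E18.5 libraries and 1 of 12 adult libraries, whereas the median over 32851 start sites was 3 and 2 libraries. Within 1 kb on either side, the 3 litters averaged 865, 648 and 676 bp and the 3 adults 0, 0 and 124 bp, so the stages did not overlap. The share of all start sites that separate in this way was not counted. Among regions called in 12 or more libraries, 30.1% had the 3 litters above the 3 adults in covered length. A further Tnnt2 start site in the table, downstream of the first, had a peak over it in 1 library, E18.5 vastus lateralis 3.

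A region inside Tnnt2, 3.51 kb after the start site (chr1:135840502-135841843), was also called more often at E18.5, in 10 libraries against 1 (Fisher's exact test, adjusted p = 0.0168). It was missing at E18.5 only in soleus 3 and vastus lateralis 2, and its adult peak was in soleus 2. The call was lost without adult 1, adult 3 or litter 1 (adjusted p 0.0914 to 0.118). Over the whole locus, peaks covered 2382 ± 78.0 bp in adults and 3994 ± 521 bp at E18.5 (mean ± SD, n = 3 animals or litters), with every litter above every adult. Called regions numbered 6 ± 0.433 against 8.33 ± 0.520, again without overlap. Every litter lay above every adult at 25% of all loci by covered length and at 14% by called regions.

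Markers of the heart were counted beside Tnnt2, since both of its called regions lay on the E18.5 side. Over 9 heart genes (Nppa, Nppb, Myh6, Myl7, Nkx2-5, Gata4, Tbx20, Hand2 and Ryr2), called regions summed to 23 to 57 per adult library (median 37) and to 31 to 71 at E18.5 (median 51.5), and 7 of the 9 genes had the higher mean at E18.5. Over all genes the median adult minus E18.5 difference was -0.25 called regions. Of the 65 heart regions that could be tested, 0 passed the stage test in the adult direction and 2 in the E18.5 direction, 1 each at Myl7 and Tbx20, against 1.55% and 4.55% of all regions tested. No gene was at 0. Their part in the Tnnt2 result was not tested.

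Tnni3, the cardiac troponin I gene, had few peaks at its own promoter. A peak lay over its start site in 2 of 24 libraries, adult soleus 2 and E18.5 vastus intermedius 2, and those same 2 libraries called the start-site region (chr7:4522335-4522713). A region 0.51 kb into the gene (chr7:4521238-4522015) was called in 7 E18.5 libraries, among them all 3 soleus libraries, and in 1 adult library, gastrocnemius 2. That contrast did not pass (Fisher's exact test, p = 0.0272, adjusted p = 0.190). The peaks that fill most of the Tnni3 locus lay in the neighbouring genes Tnnt1 and Dnaaf3, and its covered length overlapped between stages at 3656 ± 237 bp and 3954 ± 463 bp (n = 3).

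**Figure D2:**
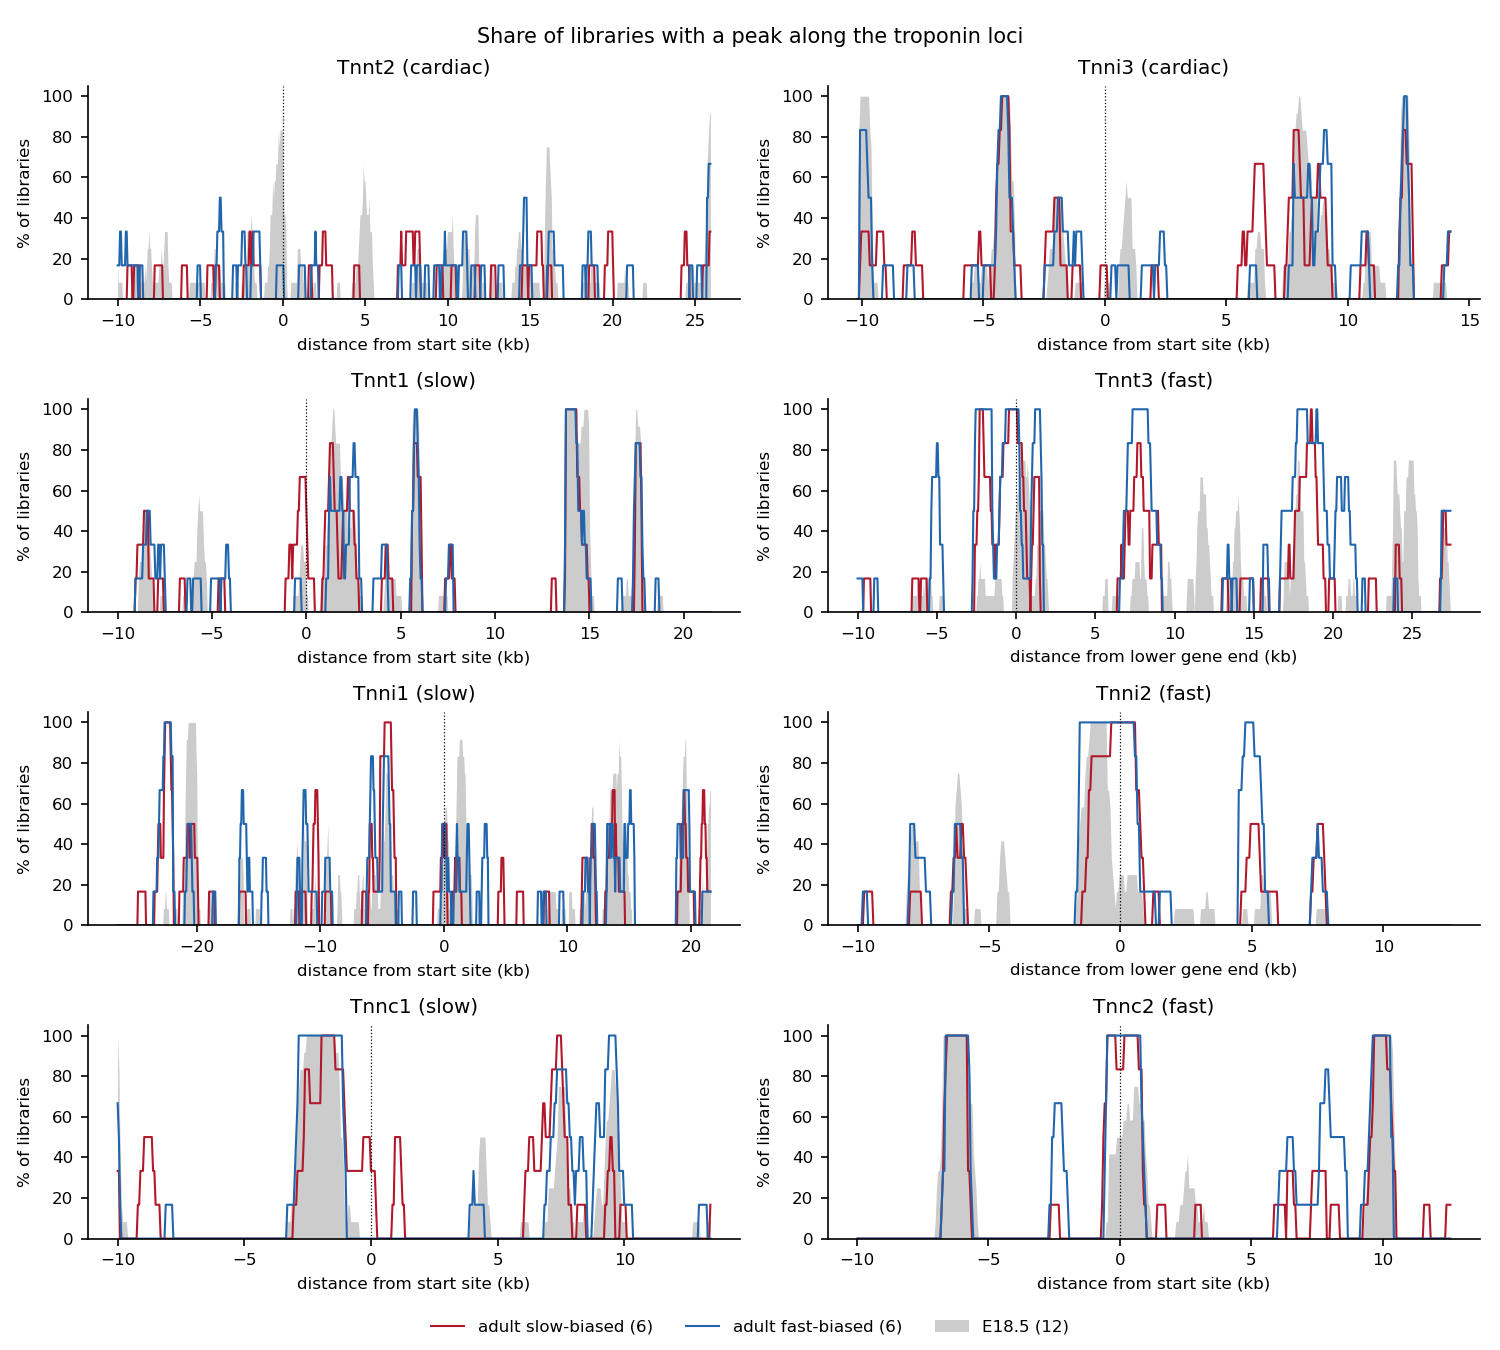
Share of libraries (percent) with a peak at each position of the 8 loci, by distance in kb from the start site or, for Tnnt3 and Tnni2, from the lower-coordinate gene end; positive distances run along the gene. Lines are adult slow-biased (red, 6 libraries) and fast-biased muscle (blue, 6), and grey is E18.5 (12 libraries). At Tnnt2 the grey profile is high at the start site, where at most 1 adult library has a peak, and at Tnnc1 only the red line is above 0 shortly after the start site.

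At Tnnt1, the slow troponin T gene, the start-site region (chr7:4515535-4517084) was called in 3 of 3 soleus, 2 of 3 vastus intermedius, 1 of 3 gastrocnemius and 0 of 3 vastus lateralis libraries of the adult. Peaks covered 898, 918 and 807 bp of it in soleus 1 to 3, 0, 440 and 316 bp in vastus intermedius, and 0, 0 and 330 bp in gastrocnemius. The slow-biased against fast-biased comparison, 5 of 6 against 1 of 6, did not pass (Fisher's exact test, p = 0.0801, adjusted p = 0.939). With the replicate block the exact p was 0.0833. At E18.5 the region was called in 4 of 12 libraries with no soleus library among them. A peak lay over the start site itself in 3 adult libraries, soleus 2 and 3 and vastus intermedius 2, and in 3 at E18.5, 1 of each muscle but soleus.

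Measured as bp covered within 1 kb of the start site, Tnnt1 averaged 585 ± 385 bp in adult slow-biased and 55.0 ± 135 bp in adult fast-biased libraries (n = 6 each). The exact permutation test over libraries gave p = 0.0152, and 0.0278 with the replicate block (labels exchanged within animal), but the adjusted p over 27397 start sites was 0.631. Such an unadjusted p in the slow-biased direction was reached by 0.73% of start sites and in the fast-biased direction by 5.11%, and no start site passed after adjustment by either test. The 3 soleus libraries lay above all 6 fast-biased ones, and 1 vastus intermedius library was at 0. This window measure was chosen after the profiles had been seen. Over the whole Tnnt1 locus, slow-biased and fast-biased adults held 3752 ± 621 and 3711 ± 599 bp (exact permutation p = 0.903).

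Tnnc1, which encodes the calcium-binding subunit of slow and heart muscle, separated adult soleus from every other library at one region. The region 0.84 kb into the gene (chr14:31209155-31209639) had a peak in the 3 adult soleus libraries, covering 292, 400 and 372 bp, and in 0 of the other 21. Such regions, called in all 3 adult soleus libraries and nowhere else, numbered 99 of 459616, or 0.0215%. In the other groups of 3 libraries, such exclusive regions numbered from 16 (E18.5 soleus) to 121 (adult vastus lateralis), with 0 troponin regions among them. The Tnnc1 region met the filter of at least 2 lists through adult soleus alone. Because vastus intermedius counts as slow-biased too, the slow against fast comparison was 3 of 6 against 0 of 6 (Fisher's exact test, p = 0.182).

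Around the Tnnc1 start site, adult soleus stood apart from the other adult libraries. A peak covered the start site itself in 2 of 24 libraries, adult soleus 1 and 3. Within 1 kb of it, peaks covered 1327, 342 and 1353 bp in adult soleus 1 to 3 and at most 22 bp in any of the other 9 adult libraries (exact permutation p = 0.106 for slow-biased against fast-biased, adjusted p = 0.919). At E18.5 the same window held 174 bp in gastrocnemius 3, 430 bp in vastus lateralis 3 and 0 bp in the other 10 libraries. Adult soleus 2 thus lay below E18.5 vastus lateralis 3. The window also overlaps part of the region 0.84 kb into the gene, so the measures are not separate. It was added after seeing the data, and the share of start sites where adult soleus stands apart was not counted. The large region that reaches the start site (chr14:31204962-31208541) was called in all 24 libraries, but its peaks lay mostly 3 to 1 kb upstream, where it overlaps the gene Nisch. A smaller region in Nisch (chr14:31199084-31199972) was called in 2 adult soleus libraries and 1 vastus intermedius library only.

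A region on the far side of Tnnc1, in Sema3g (chr14:31217038-31218646), was covered less in the adult slow-biased libraries, but this did not pass after adjustment. Covered bp per region was a measure added after seeing the data. The share of all regions that separate in this way was not counted. Peaks covered 0 to 283 bp of it in the 6 slow-biased and 597 to 1187 bp in the 6 fast-biased libraries, without overlap (exact permutation p = 0.00216, adjusted p = 0.841). At E18.5 slow-biased libraries held 258 to 886 bp and fast-biased ones 0 to 631 bp, so those groups overlapped.

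Tnni1, the slow troponin I gene that developing muscle is known to express widely, had the slow genes' single stage call. That region lay 21.5 kb upstream of the listed start sites and outside the gene body (chr1:135775913-135777874). The gene body begins at position 135783033, ahead of the listed start sites and nearer to the region. The region had a peak in 12 of 12 adult libraries and 3 of 12 at E18.5 (Fisher's exact test, adjusted p = 0.0113). Peaks covered 522 to 1727 bp of it in adults (median 1032 bp), and 315, 368 and 276 bp in the 3 E18.5 libraries with a peak. Fisher's exact test no longer called it without adult 1 (adjusted p = 0.0539) or litter 2 (0.0919). Its neighbour 19.7 kb upstream of the listed start sites (chr1:135777989-135779687) was covered more at E18.5, by 1009 ± 42.4 bp against 398 ± 157 bp in adults. Every litter was above every adult there. The region over the Tnni1 start sites (chr1:135798536-135801713), called in 22 of 24 libraries, went the same way, with 1278 ± 290 bp against 559 ± 70.0 bp. Adult slow-biased and fast-biased muscles held 5982 ± 1510 and 6726 ± 1558 bp of this locus (exact permutation p = 0.413). A region 2.53 kb after the listed start sites (chr1:135802038-135803017) had peaks in 0 adult slow-biased libraries and in 4 fast-biased ones, 2 each of gastrocnemius and vastus lateralis (Fisher's exact test, p = 0.0606).

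At Tnnt3 and Tnni2, adult peaks covered more of the locus than E18.5 peaks, while the numbers of called regions overlapped between the stages. Tnnt3, the fast troponin T gene, was covered over 8234, 7773 and 7505 bp in adults 1 to 3, and over 4622 ± 1046 bp in litters (n = 3), 1.70 times as much in the adult, with every adult above every litter. Its called regions numbered 5.17 against 6.5 and overlapped. The difference lay in the 3 widest Tnnt3 regions. The region at the lower gene end (chr7:142495993-142500816) held 2949 ± 425 against 1228 ± 259 bp, one 6.0 kb in (chr7:142504775-142508606) 1540 ± 129 against 384 ± 231 bp, and one 16.6 kb in, over the upper gene end (chr7:142515387-142520319), 2231 ± 217 against 644 ± 193 bp. All 3 adults were above all 3 litters at each of them, and each was called in at least 21 of 24 libraries. Part of the first 2 regions overlaps the gene Prr33.

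Tnnt3 also held 2 regions that were called more often at E18.5. The region 11.3 kb in (chr7:142510034-142511185) was called in 0 adult and 8 E18.5 libraries, all from litters 1 and 2 (Fisher's exact test, adjusted p = 0.0266). With litter 1, litter 2 or any 1 adult left out it did not pass (adjusted p 0.0827 to 0.263). The region 23.3 kb from the lower gene end, outside the gene (chr7:142522088-142524285), was called in 3 adult and 12 E18.5 libraries (adjusted p = 0.0113, Fisher's exact test), with 475 to 1555 bp covered at E18.5 and at most 415 bp in adults. Fisher's exact test no longer called it without litter 1 (adjusted p = 0.0644) or litter 2 (0.0515). At this locus, single regions thus went in opposite directions between the stages.

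Peaks covered more of the Tnnt3 locus in adult fast-biased libraries, a difference that did not pass after adjustment. The locus was covered over 6210, 5666 and 3104 bp in soleus 1 to 3, 6946 to 8503 bp in vastus intermedius, 9211 to 9287 bp in gastrocnemius and 8937 to 10605 bp in vastus lateralis. Soleus was lowest, vastus intermedius next, and the fast-biased muscles overlapped each other. Slow-biased (6255 ± 1818 bp) and fast-biased (9420 ± 594 bp, n = 6 each) libraries did not overlap, and fast-biased was higher within each of the 3 animals. The exact permutation test gave p = 0.00216, the smallest it can give, but adjusted p = 0.181 over 33816 loci (0.282 with the replicate block). A full separation with fast-biased muscle higher occurred at 1.13% of loci. Without soleus, the slow minus fast difference was -1904 bp (exact permutation p = 0.0119, a comparison added after seeing the data). Divided by each library's total covered length, the slow minus fast difference was -2248 bp, the groups overlapped and the exact p was 0.126. With the lists thinned at random to the shortest, it was -130 bp.

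The region over the upper Tnnt3 gene end showed the largest slow against fast difference in covered length among the 89 regions. Peaks covered 1007, 347 and 372 bp in adult soleus 1 to 3, 1508 to 2896 bp in vastus intermedius and 2315 to 4133 bp in the fast-biased muscles (exact permutation p = 0.0108, adjusted p = 1). Soleus was below all other adult libraries there. At E18.5 the same region held 658 ± 667 bp in slow-biased and 629 ± 228 bp in fast-biased libraries.

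**Figure D3:**
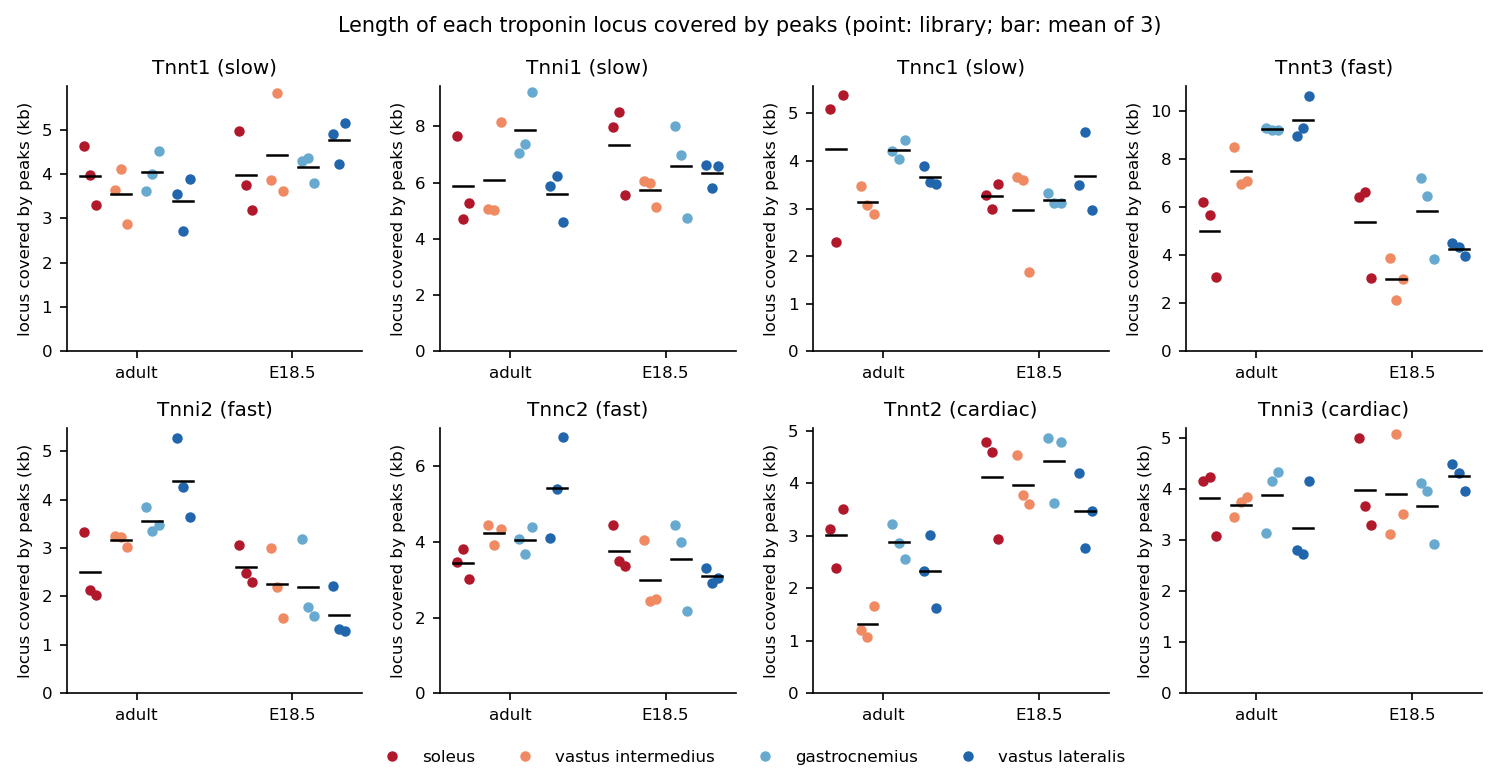
Length of each troponin locus covered by peaks (kb, y axis from 0), one panel per gene, adults left and E18.5 right; a point is a library and a bar the mean of 3. Tnnt3 and Tnni2 show adult slow-biased libraries (red and orange) below every adult fast-biased one (blue), and Tnnt2 shows most E18.5 libraries above most adult ones.

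Tnni2, the fast troponin I gene and a neighbour of Tnnt3 on chromosome 7, was covered over 3400 ± 464 bp in adults and 2164 ± 620 bp at E18.5 (n = 3), with every adult above every litter. The region at its lower gene end (chr7:142440096-142443271), which overlaps Syt8, was called in all 24 libraries, with 2137 ± 263 bp against 1308 ± 327 bp. A region 4.46 kb away (chr7:142446280-142447781) held 611 ± 83.0 bp in adults and 108 ± 34.7 bp at E18.5. Both had all adults above all litters.

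Adult fast-biased muscle again had the larger coverage of Tnni2, 3974 ± 713 bp against 2828 ± 591 bp, with the same exact permutation p of 0.00216 (adjusted p = 0.181). The groups did not overlap but nearly met, at 3339 bp in soleus 1 and 3351 bp in gastrocnemius 2. Divided by the library totals the slow minus fast difference was -696 bp with exact p = 0.203 and the groups overlapped, and with lists thinned at random it was 589 bp. At E18.5 the order was the other way round, 2430 ± 556 bp in slow-biased and 1899 ± 716 bp in fast-biased libraries, in 3 of 3 litters (exact permutation p = 0.180, within litters 0.0556). The slow minus fast difference of every adult was therefore negative and that of every litter positive, which occurred at 2.39% of loci with 1 sign or the other. The exact test of that difference between stages gave p = 0.1, the smallest 3 against 3 allow.

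One small region beside Tnni2 was called before birth only in slow-biased libraries, without passing after adjustment. The region 4.21 kb outside the gene in Syt8 (chr7:142437074-142437611) was called in 2 of 3 soleus and 3 of 3 vastus intermedius libraries at E18.5, in 0 of 6 fast-biased ones and in 0 of 12 adult libraries. Fisher's exact test gave p = 0.0152 for slow-biased against fast-biased at E18.5 (0.0278 with the replicate block), and it did not pass after adjustment. It was the single troponin region with an unadjusted p under 0.05 in this comparison. Of all 49905 regions tested at E18.5, 117 had such a p with slow-biased higher and 295 with fast-biased higher.

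Tnnc2, the fast troponin C gene, had the second adult call. A region 5.86 kb downstream of its start site, beyond the gene and in Ube2c (chr2:164771077-164773872), had peaks in 10 adult libraries and in 0 of the 12 at E18.5 (Fisher's exact test, adjusted p = 0.00415). The adult libraries without it were soleus 1 and 2. Peaks covered 238 bp in soleus 3, 518, 686 and 992 bp in vastus intermedius, 408, 322 and 1151 bp in gastrocnemius and 368, 1283 and 2615 bp in vastus lateralis. The call held with any 1 animal or litter left out. When a peak had to cover 50% of the region, the calls differed by 8.33 percentage points and were too few for a test.

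The region holding the Tnnc2 start site was called at both stages. This region (chr2:164778525-164780422) had a peak in 12 adult and 11 E18.5 libraries, and was covered over 905 to 1543 bp in adults and 0 to 1585 bp at E18.5. A peak lay over the start site in 11 adult and 6 E18.5 libraries. Within 1 kb of it, adults averaged 1417 ± 98.4 bp and litters 832 ± 456 bp (n = 3). The litters averaged 1316, 772 and 410 bp and the lowest adult 1316.5 bp, so litter 1 stood beside the adults. Slow-biased adults held 905 to 1534 bp and fast-biased adults 1342 to 1543 bp, which overlapped (exact permutation p = 0.900).

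**Figure D4:**
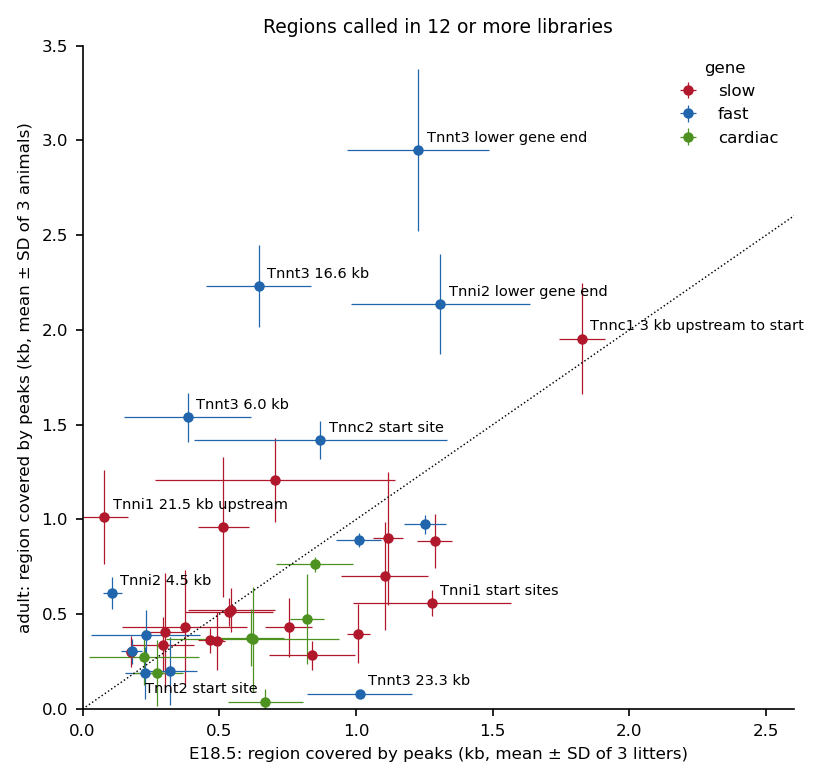
Length covered by peaks (kb) in each of the 39 troponin regions called in 12 or more libraries, adults (y axis, mean ± SD of 3 animals) against E18.5 (x axis, mean ± SD of 3 litters); the dotted line marks equal length. Regions shared by Tnnt1 and Tnni3 are drawn as slow. 3 Tnnt3 regions and the Tnni2 gene end lie above the line, and the Tnnt2 start site and the Tnni1 start sites below it.

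Over all members, the stage comparison of covered length can be set beside the rest of the genome. Of the 39 troponin regions called in 12 or more libraries, 9 had every adult above every litter, against 8.19% of such regions in the genome, and 11 had every litter above every adult, against 30.1%. Adults were above litters in 6 and below them in 3 of the 13 regions at fast genes, above in 3 and below in 5 of the 19 at slow genes, and above in 0 and below in 3 of the 10 at cardiac genes, with regions shared by 2 genes counted under both classes. By locus, the covered length of Tnnt3 and Tnni2 was higher in every adult (2 of 8, against 8.42% of loci) and that of Tnnt1 and Tnnt2 in every litter (2 of 8, against 25%). By number of called regions these were Tnnc2 (1 of 8, against 5.23%) and Tnnt2 (1 of 8, against 14%). The exact permutation p was 0.1 for each, the smallest possible with 3 against 3.

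The slow against fast comparison called no troponin region and no troponin locus after adjustment, in either stage. Fisher's exact test found 0 of 17 testable troponin regions in the adult and 0 of 15 at E18.5 past adjusted p under 0.05, and over all regions the shares called were 0% and 0%. The unadjusted counts under 0.05 were 0 and 1, and the exact test within animals also called 0. Of all 48133 regions tested in the adult, 227 had an unadjusted p under 0.05 with slow-biased higher and 1385 with fast-biased higher. At E18.5 these counts were 117 and 295 of 49905. The exact permutation test called 0 of 8 loci by number of regions (0% of all loci at both stages) and 0 of 8 by covered length (0% at both stages), with Tnnt3 and Tnni2 the 2 loci under 0.05 before adjustment in the adult, where 10.1% of all loci reached it with fast-biased higher. At E18.5, 0 of 8 loci did so by either measure. The median slow minus fast difference in covered length over all loci was -159 bp in the adult and -49.5 bp at E18.5. Adult slow-biased lists held 153684 ± 33728 peaks and fast-biased lists 179502 ± 25869 (n = 6 each), and among adults vastus intermedius had the shortest, at 115333 to 145382.

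Other genes of the thin filament and of the contractile apparatus were counted in the same stage test. The list held 21 genes with 410 regions, of which 199 could be tested: 26 passed in the adult direction, against 1.55% of all regions tested, and 5 in the E18.5 direction, against 4.55% (Fisher's exact test, adjusted p under 0.05). Neb, which encodes the thin-filament ruler nebulin, held 10 of the adult regions and 1 of the E18.5 regions, with a mean of 39.2 called regions per adult library and 8.5 per E18.5 library. Mybpc1, the slow myosin-binding protein C, held 5 and 1, and Myl1, a fast myosin light chain, 3 and 0, with 7.25 against 1.25 called regions. Nrap held 3 and Lmod2, a thin-filament nucleator, 2 in the adult direction. The tropomyosin genes Tpm1, Tpm2 and Tpm3, whose products lie under troponin on the filament, held none in either direction. Tpm1 was covered over 5443 bp in adult slow-biased and 10272 bp in fast-biased libraries (exact permutation p = 0.00216, adjusted p = 0.181). Mybpc2 had the same p-values, with 3626 against 7224 bp. Of the 21 loci, 6 had an unadjusted p under 0.05 with fast-biased adults higher and 2 with slow-biased adults higher. Over all loci the shares were 10.1% and 1.03%.

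Skeletal muscle markers held peaks in all libraries. Called regions at 9 such genes summed to 55 to 87 per adult library and 38 to 72 at E18.5, and of their 87 testable regions 9 passed the stage test in the adult direction and 0 in the other, against 1.55% and 4.55% of all regions tested. Against the same shares, fibroblast markers had 0 regions in the adult direction and 3 in the E18.5 direction of 39 testable, and satellite cell markers 0 and 3 of 36. Smooth muscle markers had 1 and 0 of 39, Schwann cell markers 1 and 0 of 7, endothelial markers 0 and 0 of 43, and immune markers 0 and 0 of 20.

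By the number of called regions across the 24 libraries, the gene most like each member was Igsf23 for Tnnt2 (Pearson r = 0.860), Cacna1a for Tnnt3 (0.856), Selenos for Tnni1 (0.769), Hyal3 for Tnnc2 (0.769), Pstk for Tnnt1 (0.765), Mettl7a3 for Tnni2 (0.720), Ptpn2 for Tnni3 (0.718) and Sult2a4 for Tnnc1 (0.648). Each is the highest of 16992 genes, the libraries share list length and animal, and the median r over all genes was 0.319 for Tnnt3 and 0.263 for Tnnt2.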

How the data were processed

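Open chromatin was measured by ATAC-seq in 24 libraries of 4 hindlimb muscles at 2 stages, with 3 replicates each. Per the submitters' processing notes, the tools were MACS2 2.1.1, Bowtie2 2.4.4, bedtools 2.25.0, Trimmomatic 0.39.0, FastQC 0.11.5, Picard and SAMtools 1.14.0, on mm10. Calling thresholds are not given in the sources at hand. The deposited files are peak lists, 1 per library, that hold coordinates only, with no count, signal or score, so precision follows from the number of libraries.

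Peaks were merged, and a region was called in a library that had a peak overlapping it by at least 1 bp. Calls, called regions per locus (gene body with 10 kb on each side) and bp covered by peaks were computed in Python 3.11.15 with numpy 2.4.6, scipy 1.17.1 and matplotlib 3.10.9. Groups came from the labels. Stages and fibre biases were compared per region by Fisher's exact test and per locus by an exact permutation test, both two-sided, with Benjamini-Hochberg adjustment over the genome and a threshold of 0.05. Stage values per locus used means per animal or litter. The scripts were tested on simulated data. The members, lists and alternatives were chosen with earlier results of these data known. Covered bp per region, start-site windows of 1 kb on each side, the first lines of each list and the fit without soleus were added after seeing the data. Named regions were those that passed a test, held a gene start or were called in all libraries, in 12 of 12 of a stage or with the largest differences; others were chosen after their values were seen. The gene most like a member had at least 5 regions and the highest Pearson r.

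The labels' mouse and litter field pairs the muscles of 1 animal or litter, and adult and litter numbers do not pair. Deviations of libraries from the same adult correlated at 0.0819 on average (-0.137 to 0.307, 18 pairs), against -0.0406 between animals. At E18.5 the values were 0.202 (-0.194 to 0.705) and -0.103.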

Additional observations from a re-analysis of the deposited data

Results flagged for a closer look

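In 9 of the 64 groups of 6 libraries looked at (slow-biased or fast-biased libraries of 1 stage, for called regions and covered bp of each gene), 1 library stood apart from the other 5. Chance flags about 1 in 20 groups of independent, normally distributed values. These groups are not independent, since Tnnt1 and Tnni3 share 9 of their 12 regions, and called regions are small whole counts. For called regions, Tnnt1 had 4 in adult vastus intermedius 3 (next 6) and 10 in E18.5 vastus intermedius 2 (next 6). Tnnt3 had 9 in E18.5 soleus 2 (next 6), Tnni2 had 6 in adult vastus lateralis 1 (next 4) and Tnni3 had 9 in E18.5 vastus intermedius 2 (next 6). For covered length, Tnnc1 had 1668 bp in E18.5 vastus intermedius 3 (next 2984) and 4616 bp in E18.5 vastus lateralis 2 (next 3492). Tnnt3 had 10605 bp in adult vastus lateralis 3 (next 9287), and Tnni3 had 2918 bp in E18.5 gastrocnemius 3 (next 3958).

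The slow minus fast difference in covered length of Tnni2 was -1146 bp in adults and 531.667 bp at E18.5, with each of the 3 adults on one side of 0 and each of the 3 litters on the other. The exact permutation test of the difference gave p = 0.1, the smallest it can give.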

How the results depend on the processing

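Of the 6 stage-called regions, the count higher at E18.5 was 4, and it was 2 when a peak had to cover 50% of the region, 0 with lists thinned at random to the shortest, 0 with the later date of each stage only, and 1 to 4 when 1 animal or litter was left out. The count higher in the adult was 2, and it was 1 with random thinning, 1 with 5 kb flanks, 0 with the later date only and 1 to 2 with 1 animal or litter left out. With the 50% rule the adult count was again 2, but neither the Tnni1 nor the Tnnc2 region was among the calls. The cause was not tested, except that the later date leaves fewer samples and 5 kb flanks fewer regions. The counts between slow-biased and fast-biased muscle were 0 under each setting tried. The slow minus fast covered length of Tnni2 in adults went from -1146 to 588.7 bp with random thinning. With the replicate block, the counts stayed at 0 and the exact p for Tnnt3 and Tnni2 covered length was 0.00926 (adjusted p = 0.282). Of the other values per locus, 362 moved by less than 1 SD and 29 by more. Other thresholds of merging and the 50% rule do not apply to covered length. Without depth or peak height, a weak peak cannot be told from none.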
